A study of Homo sapiens with 88 samples.

Results

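The genes of cholesterol and fatty acid synthesis were followed in small cell lung cancer (SCLC) lines given the vehicle DMSO or a treatment called 552A. The list held 30 genes, and a gene was read where at least 1 probe set of the array was annotated to it alone. That gave 27 genes with 60 probe sets, out of 15352 genes tested. CYP51A1 and FADS1 had only probe sets that also named another gene and FDFT1 had none in the annotation used, so these 3 genes were not analysed here. The signal is a log2 value per probe set on Affymetrix HG-U133 Plus 2.0 arrays, and a difference of 1 on this scale is a doubling. The study used 88 arrays of 9 SCLC lines grown in RPMI with fetal bovine serum. COLO668, SHP-77 and 4 NCI lines (NCI-H146, NCI-H446, NCI-H510 and NCI-H526) were given DMSO or 552A for 2, 4 or 7 days, while H1417, H2171 and H69 were given either for 4 days. The compound in the treatment protocol, beside DMSO, is GSK2879552 at 1 µM, which inhibits the histone demethylase LSD1, but no label equates it with 552A. The labels mention no genotype or transgene, and passages are given as multiple. Of the 42 groups of line, treatment and day, 39 had 2 arrays, 2 had 3 and 1 had 4. The labels do not tell whether the arrays of 1 group stem from different cultures, so the p-values within a line measure a spread that may be technical.

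Cells build cholesterol from acetyl-CoA through the mevalonate steps, then cyclise squalene and trim the ring to cholesterol. The same acetyl-CoA feeds fatty acid synthesis, in which ATP citrate lyase, acetyl-CoA carboxylase, fatty acid synthase, desaturases and elongases act in turn. Many of these genes share the SREBP transcription factors, encoded by SREBF1 and SREBF2. SCAP escorts the SREBP precursors to the Golgi for cleavage when membrane sterol is low, and INSIG proteins hold SCAP in the endoplasmic reticulum when sterol is high. SREBP is known to act together with NF-Y, which binds the sequence CCAAT.

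The promoters of 6 members and a site of a seventh are shown because these genes hold 12 of the 17 changes with time in DMSO and 9 of the 21 changes under 552A described below. The windows are the 250 bases before the RefSeq start (GRCh38.p14), read on the gene's strand from 5′ to 3′, and capitals mark CCAAT or its reverse complement ATTGG. They lie at chr17:17836987-17837236 (minus strand) for SREBF1, chr7:155297628-155297877 (plus) for INSIG1, chr5:111512536-111512785 (minus) for STARD4, chr10:100346983-100347232 (plus) for SCD, chr4:165327419-165327668 (plus) for MSMO1 and chr11:65111622-65111871 (plus) for TM7SF2. In SREBF2, on the plus strand of chr22:41832957-41832995, capitals mark a match to the sterol response element TCACNCCAC upstream of the start.
SREBF1: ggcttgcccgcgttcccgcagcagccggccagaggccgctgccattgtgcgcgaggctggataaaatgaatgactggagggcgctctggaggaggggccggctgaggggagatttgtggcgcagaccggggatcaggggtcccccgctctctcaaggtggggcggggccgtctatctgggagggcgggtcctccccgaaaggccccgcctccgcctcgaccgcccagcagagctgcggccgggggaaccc
INSIG1: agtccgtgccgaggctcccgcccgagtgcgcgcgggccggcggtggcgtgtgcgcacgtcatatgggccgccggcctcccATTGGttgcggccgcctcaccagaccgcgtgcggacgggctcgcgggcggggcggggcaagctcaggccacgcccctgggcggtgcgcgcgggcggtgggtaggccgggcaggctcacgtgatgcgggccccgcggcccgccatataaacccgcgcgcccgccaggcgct
STARD4: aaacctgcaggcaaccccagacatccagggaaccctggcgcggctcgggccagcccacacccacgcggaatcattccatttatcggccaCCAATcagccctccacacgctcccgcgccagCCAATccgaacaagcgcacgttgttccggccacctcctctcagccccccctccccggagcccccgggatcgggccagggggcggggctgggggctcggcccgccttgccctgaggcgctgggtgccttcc
SCD: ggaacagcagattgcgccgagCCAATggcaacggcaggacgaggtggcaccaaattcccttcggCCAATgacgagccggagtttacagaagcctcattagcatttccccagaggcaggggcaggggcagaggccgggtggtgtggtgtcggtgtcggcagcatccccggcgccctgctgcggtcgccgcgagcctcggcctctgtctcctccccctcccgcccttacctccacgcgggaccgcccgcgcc
MSMO1: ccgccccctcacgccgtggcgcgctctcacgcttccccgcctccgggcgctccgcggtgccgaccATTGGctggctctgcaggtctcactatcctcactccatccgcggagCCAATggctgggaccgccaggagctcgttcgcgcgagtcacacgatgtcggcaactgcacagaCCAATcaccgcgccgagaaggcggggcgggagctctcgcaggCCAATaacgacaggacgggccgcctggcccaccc
TM7SF2: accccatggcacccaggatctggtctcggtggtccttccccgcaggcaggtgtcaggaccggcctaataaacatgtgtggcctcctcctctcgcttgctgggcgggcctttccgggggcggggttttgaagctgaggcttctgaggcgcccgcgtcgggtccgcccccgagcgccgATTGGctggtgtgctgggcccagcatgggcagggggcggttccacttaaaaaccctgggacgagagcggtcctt
SREBF2: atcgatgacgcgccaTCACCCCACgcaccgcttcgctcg
The MSMO1 window held 4 matches to CCAAT, the STARD4 and SCD windows 2 each, the INSIG1 and TM7SF2 windows 1 each and the SREBF1 window 0. RefSeq promoters were matched for 26 of the 30 genes, in 35 windows, since some genes have several starts. A CCAAT match on either strand was present in 23 of these 35 windows, 65.7%, and in 32.0% of all 35116 RefSeq windows of the same length. Windows with 2 or more matches made up 42.9% of the members' windows and 9.53% of all windows. TCACNCCAC was found in 1 member window, that of SREBF2, and in 0.883% of all windows. These are letter matches in a short window, and no binding was measured.

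Array medians lay between 7.36 and 7.46. Of the neuroendocrine markers, INSM1, CHGA and NCAM1 were bright in the DMSO arrays of every line, with line means of 12.36 to 13.80, 10.78 to 13.57 and 10.74 to 12.77. SYP stayed near the median of all values, at 7.66 to 8.09, and the tuft cell factor POU2F3 ranged from 4.54 to 12.48. Of 8 tested markers of immune, fibroblast and endothelial cells, line means ran from 3.91 to 8.59, apart from the endothelial CDH5 at 5.07 to 10.91. The liver and fat markers ALB, APOA1, ADIPOQ and PLIN1, whose tissues make much lipid, stayed between 4.17 and 7.01 and none of the 4 passed the filter on dim probe sets. The 3' minus 5' signal of ACTB, a sign of RNA integrity, was above 0.8 on 5 day 7 arrays of SHP-77 and COLO668, against at most 0.73 on the others and a median of 0. The arrays concerned were SHP-77 DMSO replicate 1 at 1.67, SHP-77 552A replicates 1 and 2 at 0.89 and 0.88, COLO668 DMSO replicate 1 at 1.11 and COLO668 552A replicate 2 at 1.34. NCI-H446 DMSO day 4 replicate 2 stood apart by its narrow interquartile range of 2.56. Results of single lines that rest on these 6 arrays are followed by values without them.

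Signal levels of the members differed between lines, and each line had its own profile. In DMSO at day 4 all 27 members differed between the 9 lines (limma moderated F test, adjusted p below 0.05), against a background of 96.7% of all genes tested, so a difference between lines is what most genes show here. H2171 held the highest mean for several sterol genes and for INSIG1 and SREBF1, but among the fatty acid genes only for SCD. INSIG1, the sterol-sensing brake, was lowest in NCI-H510 with arrays at 9.02 and 9.09 and highest in H2171 with arrays at 12.75 and 12.86. The lines between them ran from NCI-H146 at 10.49 ± 0.16 and SHP-77 at 10.49 ± 0.30 (SD, n = 2 each) through H1417 at 10.86 ± 0.44 and COLO668 at 10.89 ± 0.13, each overlapping its neighbour in this order, to NCI-H446 at 11.67 ± 0.39 (n = 3), NCI-H526 at 11.79 ± 0.20 and H69 at 12.07 ± 0.02 (n = 2 each). NCI-H446 and NCI-H526 overlapped as well. SREBF1, which encodes the SREBP best known for fatty acid genes, went from 8.04 ± 0.24 in H1417 and 8.25 ± 0.17 in NCI-H146 to 9.82 ± 0.05 in H2171, and the 5 lines from NCI-H510 at 9.0 to NCI-H526 at 9.22 overlapped. SREBF2, the SREBP best known for cholesterol genes, had another order, with NCI-H510 lowest at 9.46 ± 0.03 and COLO668 highest at 11.17 ± 0.01 (n = 2 each).

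**Figure D1:**
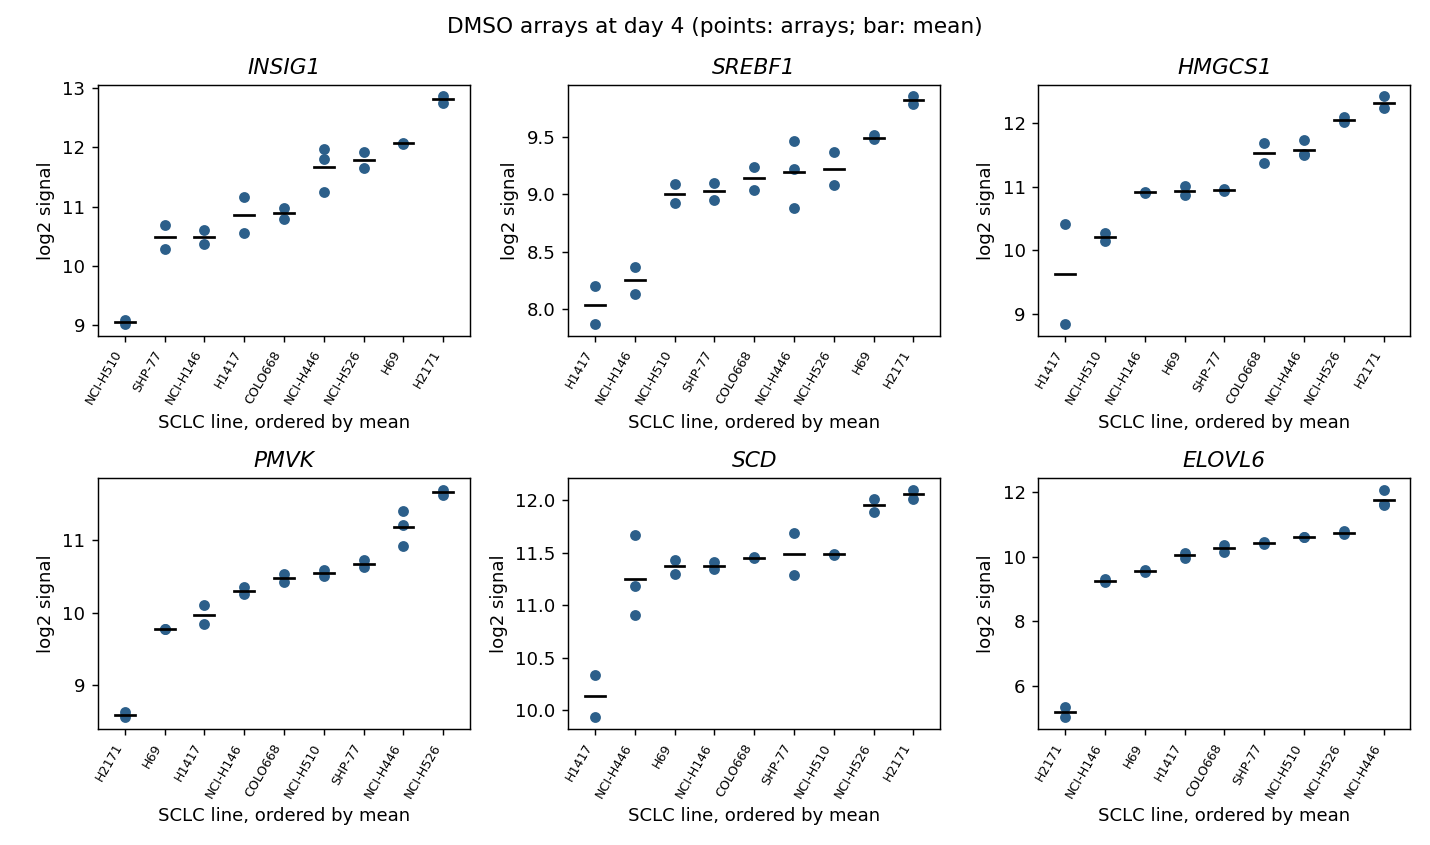
Signal (log2, vertical axis) of 6 members on each DMSO array at day 4, with the 9 lines along the horizontal axis in the order of their means, points for arrays and a bar for the mean. INSIG1, SREBF1, HMGCS1 and SCD peak in H2171, while PMVK and ELOVL6 are lowest there, ELOVL6 at 5.19 against 9.26 in the next line.

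HMGCS1, which makes HMG-CoA at the start of the mevalonate steps, had its highest mean in H2171 as well, with arrays at 12.23 and 12.42. Its lowest mean was in H1417, whose arrays at 10.41 and 8.84 were the farthest apart. ACAT2, which joins acetyl-CoA units before HMGCS1, was at 10.16 and 10.23 in NCI-H510 and at 12.35 and 12.29 in H2171. PMVK, the phosphomevalonate kinase, ran the other way, with 8.64 and 8.56 in H2171 and 11.69 and 11.62 in NCI-H526. The widest range of any member was that of ELOVL6, an elongase of saturated and monounsaturated fatty acids, whose line means spanned 6.58. Its H2171 arrays read 5.03 and 5.36, below the median of all array values of 7.41, and those of NCI-H446 read 11.64, 11.61 and 12.08. SCD, the stearoyl-CoA desaturase, was lowest in H1417 at 10.13 ± 0.29 (n = 2) and lay between 11.25 and 11.49 in 6 lines, whose arrays overlapped. The highest SCD means were 11.95 ± 0.09 in NCI-H526 and 12.06 ± 0.06 in H2171 (n = 2 each). The narrowest ranges were those of ACACA, the acetyl-CoA carboxylase, at 0.70, and MVK, mevalonate kinase, at 0.79.

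The response to 552A was the mean over days of 552A minus DMSO in a line, from a limma fit over all 42 groups, and SE below is that fit's standard error. Over the 9 lines 21 of 243 tests of members passed an adjusted p of 0.05, 8.64%, against 10.3% for all genes tested. The members as a whole therefore changed about as often as other genes, and the calls lay in a few lines and in different directions. In NCI-H526 8 of 27 members fell and 0 rose, with 10.5% of all genes lower and 10.7% higher. In NCI-H510 4 fell and 0 rose, with 6.44% of all genes lower and 8.60% higher. In COLO668 6 rose and 0 fell, with 12.3% higher and 8.81% lower. SHP-77, H69 and H1417 had 1 higher member each, the same gene, TM7SF2, and 0 lower, with backgrounds of 3.87%, 2.44% and 5.53% higher and 4.27%, 1.73% and 3.71% lower. NCI-H146, NCI-H446 and H2171 had 0 members called, with 4.27%, 4.31% and 1.43% of all genes higher and 2.12%, 1.28% and 0.573% lower.

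**Figure D2:**
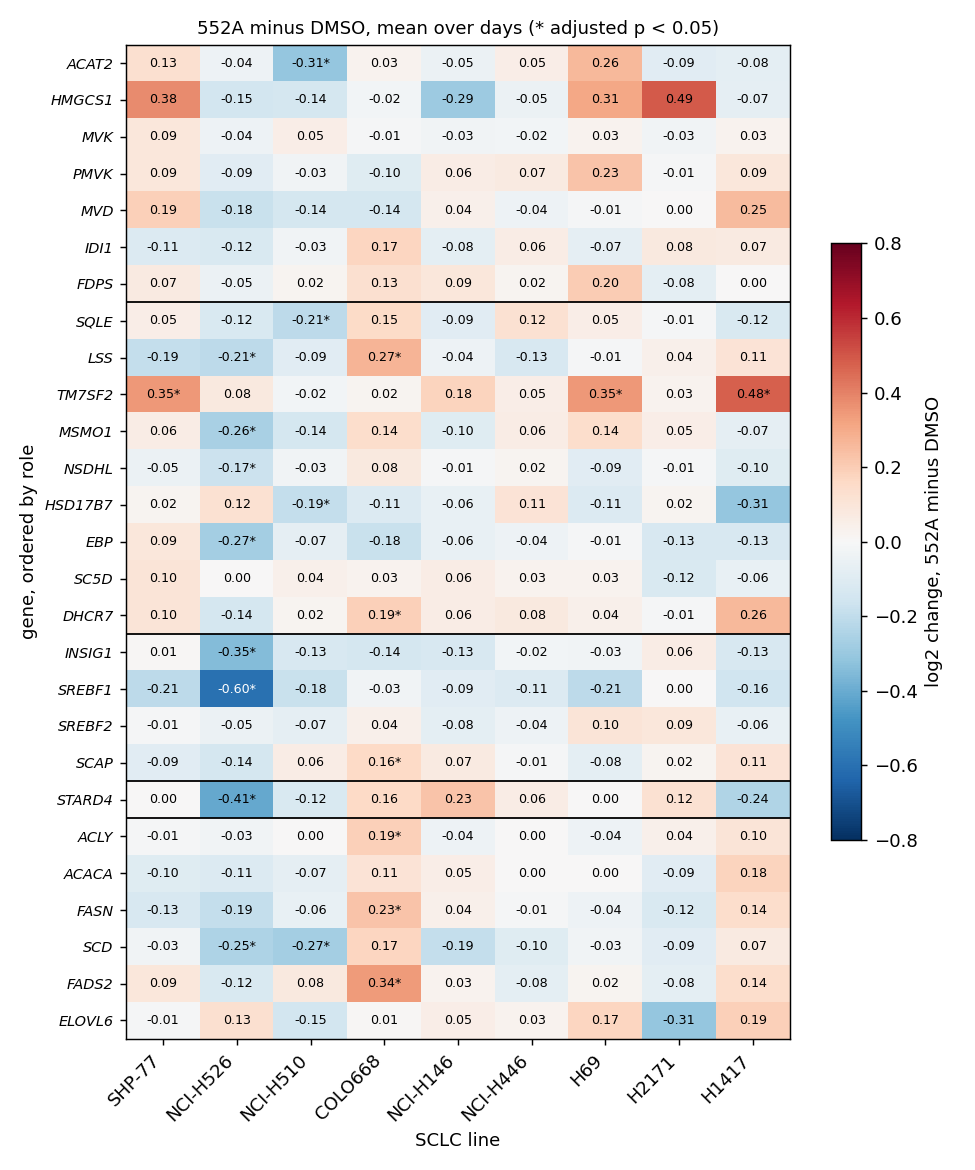
Response to 552A (log2, 552A minus DMSO, mean over days) of the 27 members in rows, ordered by role with lines between roles, and the 9 lines in columns, with the value in each cell and a star where the adjusted p was below 0.05. The 8 stars of NCI-H526 are all negative and the 6 of COLO668 all positive, and TM7SF2 carries the stars of SHP-77, H69 and H1417.

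In NCI-H526 the control genes SREBF1 and INSIG1 and the carrier STARD4 had the largest falls, while the control genes SREBF2 at -0.05 and SCAP at -0.14 did not pass the test. SREBF1 had DMSO arrays at 9.32 and 9.75 on day 2, 9.08 and 9.37 on day 4 and 9.73 and 9.64 on day 7. Its 552A arrays read 9.06, 9.28 and 9.32 on day 2, 8.44 and 8.78 on day 4 and 8.92 and 8.71 on day 7. The arms touched on day 2 and were apart on days 4 and 7. SREBF1 fell by 0.60 ± 0.09 (SE) over days, 1.52-fold, with an adjusted p of 5.52e-07 in limma. By day the differences were -0.31, -0.62 and -0.87, and those of days 4 and 7 passed the test with adjusted p of 0.0101 and 6.14e-05. The other SREBF1 probe set gave -0.13 with an adjusted p of 0.422, so the 2 probe sets of this gene differed in size.

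STARD4, which carries cholesterol between membranes, had DMSO arrays at 9.34 and 9.62, 9.47 and 9.63, and 9.53 and 9.58 on days 2, 4 and 7. Under 552A it read 9.22, 9.34 and 9.38 on day 2, 9.0 and 9.06 on day 4 and 9.06 and 8.97 on day 7. All 4 treated arrays of the later days lay below every DMSO array, and those of day 2 overlapped with them. It fell by 0.41 ± 0.07 over days (adjusted p 2.04e-05), with -0.17, -0.52 and -0.54 by day. INSIG1 had DMSO arrays at 11.71 and 12.26, 11.65 and 11.93, and 11.99 and 12.37, and 552A arrays at 11.38, 11.90 and 11.93, 11.30 and 11.53, and 12.00 and 11.51 on the same days. The arms overlapped on days 2 and 7. INSIG1 fell by 0.35 ± 0.13 over days (adjusted p 0.0408), and a second of its 3 probe sets was lower too, by -0.45 with an adjusted p of 0.00742, while the third read -0.24 with 0.226.

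**Figure D3:**
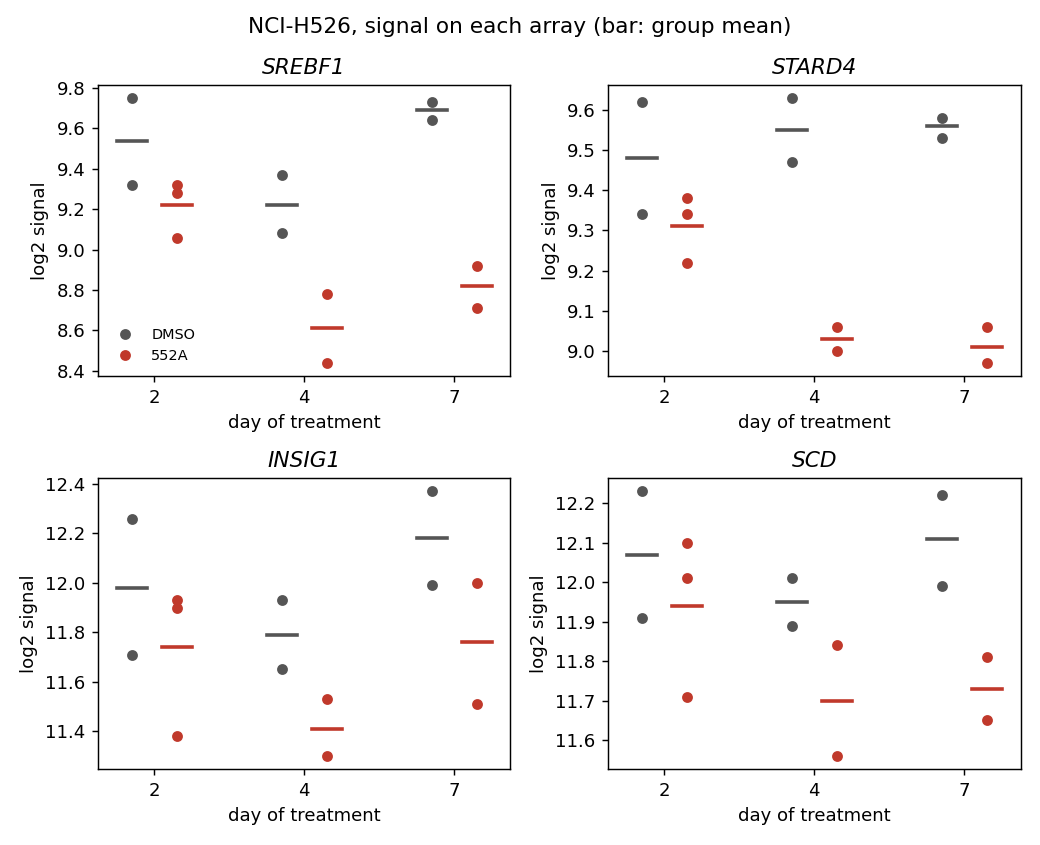
Signal (log2, vertical axis) on each NCI-H526 array by day of treatment (horizontal axis), grey for DMSO and red for 552A, with a bar for each group mean. The SREBF1 and STARD4 arrays of the arms are apart on days 4 and 7, and the INSIG1 arms overlap on days 2 and 7.

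The remaining calls of NCI-H526 were sterol ring enzymes and SCD. EBP, the sterol isomerase, had a DMSO range of 12.50 to 12.65 (median 12.59, n = 6) and a 552A range of 12.17 to 12.52 (median 12.28, n = 7), and fell by 0.27 ± 0.09 (adjusted p 0.0286). MSMO1, the C4-methyl sterol oxidase, ran from 12.20 to 12.53 (median 12.43) in DMSO and from 12.02 to 12.32 (median 12.09) under 552A. It fell by 0.26 ± 0.08 (adjusted p 0.00727). The ranges of the arms overlapped for both genes. SCD ran from 11.89 to 12.23 (median 12.00) in DMSO and from 11.56 to 12.10 (median 11.81) under 552A and fell by 0.25 ± 0.09 (adjusted p 0.0415). LSS, which closes the sterol rings, fell by 0.21 ± 0.08 (adjusted p 0.0384) and NSDHL, which removes the C4 carboxyl group, by 0.17 ± 0.06 (adjusted p 0.0363). By role, 0 of 7 mevalonate genes, 4 of 9 squalene to cholesterol genes, 2 of 4 control genes, the carrier STARD4 and 1 of 6 fatty acid genes were lower. The median over the members was -0.12, against -0.02 for all genes, and 24 of 27 members had a negative value. By day the median was -0.06, -0.12 and -0.20, beside -0.02, -0.01 and -0.01 for all genes.

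Over single probe sets, 15 of 60 were lower and 1 higher in NCI-H526, with 8.43% of all 29598 probe sets lower and 9.12% higher. The higher one was a second probe set of ELOVL6, at 0.23 with an adjusted p of 0.0324. IDI1, which isomerises isopentenyl diphosphate, was represented by a dim probe set, above the median of all values in 17 of 42 groups, that gave -0.12, with an adjusted p of 0.499 over probe sets. It stood in for 3 probe sets ending in _x_at, which can cross-hybridise and were set aside. Of these, 2 were lower, at -0.22 and -0.23 with adjusted p of 0.0122 and 0.00566, and the third read 0.06 with 0.514. SREBF1 and STARD4 kept their call whichever single array of the line was left out, with ranges of -0.67 to -0.53 and -0.45 to -0.36. The count of 8 was less steady: it ranged from 2 to 8 as single arrays were left out. It was 2 when replicate 2 of DMSO at day 2 was dropped, and 3 when replicate 1 of 552A or replicate 2 of DMSO at day 4 was. Dropping replicate 2 of DMSO at day 7 gave 4, and dropping replicate 1 of 552A at day 2 or either 552A array of day 7 gave 5. No share of all genes is given for these fits without a single array, so their counts show a shift only. With days 2 and 4 alone 2 members were lower, with 4.85% of all genes, and 24 of 27 values were negative. Without the 6 arrays that stood apart, none of them of this line, 12 members were lower, with 17.1% of all genes.

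In NCI-H510 the lower members came from other steps. ACAT2 ran from 10.05 to 10.23 (median 10.16, n = 6) in DMSO and from 9.79 to 9.94 (median 9.82, n = 6) under 552A, with every treated array below every DMSO array. It fell by 0.31 ± 0.07 (adjusted p 0.00112), with -0.23, -0.36 and -0.32 by day. SQLE, the squalene epoxidase, ran from 11.59 to 11.80 (median 11.71) in DMSO and from 11.43 to 11.57 (median 11.49) under 552A, again without overlap. SQLE fell by 0.21 ± 0.06 (adjusted p 0.00514), and 3 of its 4 probe sets were lower. HSD17B7, a sterol 3-ketoreductase whose only probe set ends in _x_at and may pick up related sequences, fell by 0.19 ± 0.06 (adjusted p 0.0367). Its arms did not overlap either, at 11.02 to 11.14 against 10.77 to 10.98. SCD fell by 0.27 ± 0.09 (adjusted p 0.0464). Its DMSO arrays ran from 11.48 to 11.75 and its 552A arrays from 11.09 to 11.68, and the gap was widest on day 7, where DMSO arrays at 11.52 and 11.71 stood beside 552A arrays at 11.12 and 11.09. SCD was the single member called lower in both NCI-H526 and NCI-H510. ACAT2 and SQLE kept their call without any single array, while SCD and HSD17B7 lost theirs without 11 and 12 of the 12 arrays of the line, which left a count of 2 or 3.

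In COLO668 3 fatty acid genes, 2 sterol ring genes and SCAP were higher. FADS2, the delta-6 desaturase, had DMSO arrays at 9.96 and 10.20, 9.87 and 10.04, and 10.57 and 10.09 on days 2, 4 and 7, and 552A arrays at 10.29 and 10.40, 10.38 and 10.37, and 10.71 and 10.63. Within each day both treated arrays were above both DMSO arrays. It rose by 0.34 ± 0.08 (adjusted p 0.000427). ACLY, ATP citrate lyase, ran from 13.10 to 13.28 (median 13.26, n = 6) in DMSO and from 13.39 to 13.45 (median 13.43, n = 6) under 552A, with no overlap, and rose by 0.19 ± 0.04 (adjusted p 5.86e-05). FASN, fatty acid synthase, ran from 10.85 to 11.57 (median 11.22) in DMSO and from 11.36 to 11.67 (median 11.39) under 552A, with both extremes of DMSO on day 7. It rose by 0.23 ± 0.08 (adjusted p 0.0423), but its second probe set read -0.08 with an adjusted p of 0.373. LSS ran from 11.15 to 11.67 (median 11.29) in DMSO and from 11.29 to 12.02 (median 11.53) under 552A, with overlap. LSS rose by 0.27 ± 0.08 (adjusted p 0.00701), DHCR7, the last reductase of cholesterol synthesis, by 0.19 ± 0.06 (adjusted p 0.0265) and SCAP by 0.16 ± 0.06 (adjusted p 0.0407). By role these were 3 of 6 fatty acid genes, 2 of 9 squalene to cholesterol genes, 1 of 4 control genes and 0 of 7 mevalonate genes. Over single probe sets 7 of 60 were higher and 0 lower in COLO668, near the 10.4% of all probe sets higher, with 6.79% lower. SCD was at 0.17 (adjusted p 0.236 over probe sets) by its brightest probe set and at -0.04 to -0.31 by the other 3, so it has no settled sign here. The count was 3 when either replicate 2 of 552A at day 7 or replicate 1 of DMSO at day 2 was dropped. No share of all genes is given for these fits. FADS2 and ACLY kept their call without any single array. The mean ACTB 3' minus 5' signal of COLO668 at day 7 was 0.96 under 552A and 0.70 in DMSO. With this signal as a covariate, added after the data were seen, 6 members were higher and 0 lower, with 13.1% and 9.11% of all genes. Without the 6 arrays that stood apart 6 were higher and 1 lower, with 15.9% and 12.6% of all genes, and DHCR7 at 0.14 lost its call. On days 2 and 4 alone 2 were higher, with 4.55% of all genes, and from the arrays of COLO668 alone 2 were higher, with 9.22%.

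TM7SF2, the C14-sterol reductase, was higher in more lines than any other member. In SHP-77 its DMSO arrays read 8.83 and 8.81, 8.79 and 8.89, and 9.15 and 9.40 on days 2, 4 and 7. Its 552A arrays read 9.01 and 9.13, 9.09 and 9.08, and 9.88, 9.86, 9.77 and 9.83. On each day every treated array was above every DMSO array. TM7SF2 rose by 0.35 ± 0.06 in SHP-77 (adjusted p 1.77e-05), by 0.35 ± 0.11 in H69 (adjusted p 0.0384) and by 0.48 ± 0.11 in H1417 (adjusted p 0.000782). At day 4 the H69 arrays were at 10.59 and 10.70 in DMSO and 10.99 and 11.02 under 552A, and those of H1417 at 9.82 and 9.50 and at 10.15 and 10.15. NCI-H146 gave 0.18 (adjusted p 0.0671), and the other 5 lines lay between -0.02 and 0.08. The call in H69 was lost whichever of its 4 arrays was left out and that in H1417 without DMSO replicate 2. TM7SF2 was at 0.30 in SHP-77 without the 6 arrays that stood apart and kept its call. The SHP-77 count of 1 member moved in 1 of 14 fits that left out a single array of the line. That fit dropped DMSO day 7 replicate 2, which left 1 array in its group, and no share of all genes is given for it.

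The lines differed in their response for 14 of 27 members by the moderated F test over the 6 time course lines, against 38.1% of all genes. STARD4 differed by the smallest p, from -0.41 in NCI-H526 to 0.23 in NCI-H146 (adjusted p 2.06e-05). SQLE went from -0.21 in NCI-H510 to 0.15 in COLO668 (adjusted p 0.000513). The other 12 were ACAT2, LSS, TM7SF2, MSMO1, HSD17B7, DHCR7, SREBF1, SCAP, ACLY, FASN, SCD and FADS2. INSIG1 and SREBF2 were not among them, with adjusted p of 0.534 and 0.818. With the line as the replicate, 0 of 27 members passed at day 4 over 9 lines (limma), where 0.0326% of all genes were higher and 0.0195% lower. The 4 members with an unadjusted p below 0.05 follow, without the share of all genes at that threshold. EBP was at -0.11 ± 0.03 (SE), lower in 9 of 9 lines, with an unadjusted p of 0.00984 and an adjusted p of 0.248 in limma. TM7SF2 was at 0.15 ± 0.06, higher in 7 of 9 lines (adjusted p 0.293), SREBF1 at -0.16 ± 0.06 and lower in 6 (0.339), and INSIG1 at -0.13 ± 0.05 and lower in 7 (0.354).

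By single day 24 of 567 member tests passed, 4.23%, against 5.50% of all genes, 11 higher and 13 lower. COLO668 at day 7 had 6 higher and 4 lower, with 15.4% and 11.2% of all genes. The higher ones were LSS at 0.46, IDI1 at 0.45, FADS2 at 0.34, SCAP at 0.33 and ACLY and ACACA at 0.26 each, and the lower ones EBP at -0.43, MVD at -0.41, ACAT2 at -0.34 and HSD17B7 at -0.31. The IDI1 value is that of its dim probe set, whose DMSO mean in COLO668 was 7.02, below the median of all values. Without the 2 COLO668 arrays among the 6 that stood apart 8 were higher and 3 lower, with 16.4% and 11.8% of all genes, and MVD at -0.11 and HSD17B7 at -0.31 lost their call. FADS2 was the single member called in COLO668 at day 4, by 0.42 (adjusted p 0.0495), with 2.66% of all genes higher. In NCI-H526 SREBF1 and STARD4 were the members called lower at day 4 and again at day 7, with 2.36% and 5.06% of all genes lower. In NCI-H510 SQLE at -0.31 and SCD at -0.51 were lower at day 7 (adjusted p 0.0452 and 0.0481), with 2.29% of all genes lower. In NCI-H446 at day 4 LSS was at -0.51 (adjusted p 0.00469) and SCD at -0.47 (adjusted p 0.0346), with 2.61% of all genes lower, in a comparison that includes the array with the narrow range. Without it LSS was at -0.47 (adjusted p 0.0103), SCD at -0.51 (0.0684) lost its call, and 3 members were lower, with 2.94% of all genes. In SHP-77 at day 7 TM7SF2 and MVD, mevalonate diphosphate decarboxylase, were higher, MVD by 0.39 (adjusted p 0.0412), and LSS was lower by -0.37 (adjusted p 0.0328), with 5.90% higher and 4.14% lower over all genes. Without the 3 SHP-77 arrays that stood apart TM7SF2 was at 0.40 (adjusted p 0.0153), and MVD at 0.32 and LSS at -0.25 lost their call, with 2.14% of all genes higher and 0.997% lower. A change of the response between days 2 and 7 was called for 1 of 162 member tests, 0.617%, against 0.943% of all genes. This was ACAT2 in COLO668, where 1.19% of all genes were lower in this comparison. Its difference went from 0.28 at day 2 to -0.34 at day 7, a change of -0.62 ± 0.17 (SE, adjusted p 0.0259 in limma). It was -0.80 (adjusted p 0.000655) without the 6 arrays, when 5 member tests were called.

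The members' ratios moved together across lines and days to differing degrees. Over the 21 line and day ratios the median pairwise Pearson r was 0.30 among the members and 0.01 among all genes tested. It was 0.66 among the 6 fatty acid genes, 0.55 among the 4 control genes, 0.36 among the mevalonate genes and 0.22 among the squalene to cholesterol genes. MSMO1 followed the mean of the other members most closely with r of 0.94, then DHCR7 and SCD with 0.87 each and INSIG1 and SREBF1 with 0.75 each. HSD17B7 at 0.06, PMVK at 0.09, SC5D at 0.10 and ELOVL6 at 0.12 did not follow it. These values describe 21 points that share lines and arrays and are given without a test.

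Genes of cholesterol uptake, efflux, SREBP handling, fatty acid elongation and activation, and oxidation were read from 5 further lists. In NCI-H526 9 of 24 elongation and activation genes and 4 of 17 oxidation genes were lower and 1 of each list higher, beside 10.5% and 10.7% of all genes. SCD5, the second stearoyl-CoA desaturase, was the listed gene higher in most lines, 6 of 9, while SCD was higher in 0. SCD5 rose by 1.73 ± 0.19 in H1417, 1.09 ± 0.19 in H69, 1.09 ± 0.11 in COLO668, 1.08 ± 0.11 in NCI-H526, 0.89 ± 0.11 in NCI-H510 and 0.59 ± 0.11 in NCI-H146, with adjusted p of at most 0.000157. In H1417 its mean went from 9.97 ± 0.02 to 11.70 ± 0.08 (SD, n = 2 each), and in NCI-H510 from 10.80 ± 0.12 to 11.69 ± 0.12 (n = 6 each). In NCI-H526 it stayed below the median of all values, at 5.03 ± 0.19 (n = 6) against 6.03 ± 0.71 (n = 7). NPC2, which exports cholesterol from lysosomes, rose in 5 lines, by 0.26 in NCI-H526 to 0.47 in NCI-H510.

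**Figure D4:**
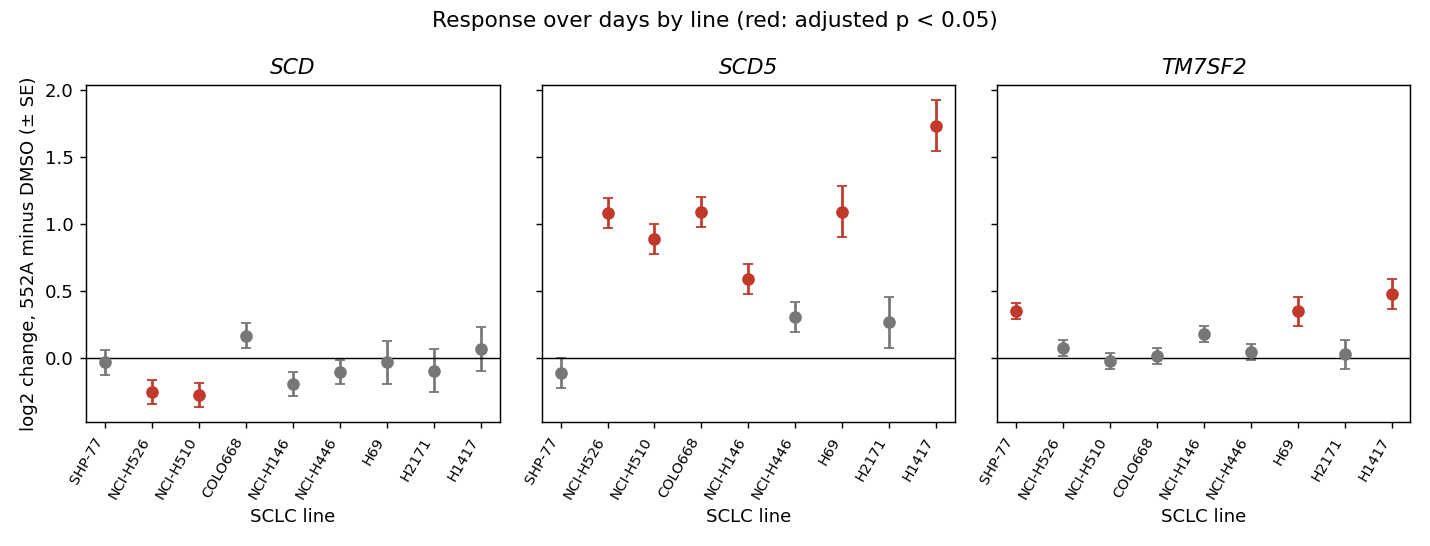
Response to 552A (log2, 552A minus DMSO, vertical axis) with bars of ± 1 SE for SCD, SCD5 and TM7SF2 in the 9 lines (horizontal axis), red where the adjusted p was below 0.05. SCD5 is red and above 0.5 in 6 lines, SCD is red and below 0 in NCI-H526 and NCI-H510, and TM7SF2 is red in SHP-77, H69 and H1417.

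MBTPS1, a protease that cleaves SREBP precursors, rose by 0.44 ± 0.06 in SHP-77, 0.42 ± 0.06 in COLO668 and 0.26 ± 0.06 in NCI-H526. ABCA1, which exports cholesterol from the cell, rose in H1417 by 1.05 ± 0.22, in NCI-H446 by 0.60 ± 0.12 and in COLO668 by 0.52 ± 0.13. Its arm means stayed below the median of all values in NCI-H446, at 5.47 in DMSO and 6.06 under 552A. The same held in COLO668, at 5.67 and 6.19, with an SD of 0.76 under 552A. The receptor SCARB1, which takes up cholesterol from HDL, fell in NCI-H526 by 0.35 ± 0.06 and in NCI-H510 by 0.23 ± 0.06. VLDLR rose in NCI-H446 by 0.85 ± 0.08 and in COLO668 by 0.32 ± 0.08 and fell in NCI-H146 by 0.37 ± 0.08. LRP8 fell in NCI-H510 and COLO668 by 0.24 and 0.20 and rose in H1417 by 0.54. These receptors had no common direction over the lines. ACSL1, which activates long-chain fatty acids, rose in H1417 by 0.42 and COLO668 by 0.31 and fell in H69 by 0.51 and NCI-H526 by 0.38. CPT1A, which admits fatty acids to mitochondria, rose in H69 by 0.47 and COLO668 by 0.23 and fell in NCI-H526 by 0.22. PPARGC1A, a coactivator of oxidative genes, rose in NCI-H510 by 0.36 and fell in H1417 by 0.51 and SHP-77 by 0.37. Its means in DMSO and 552A were below the median of all values in NCI-H510 (6.02 and 6.39) and H1417 (5.95 and 5.44). In H69 so were those of ACSL1 (6.94 and 6.43) and CPT1A (6.53 and 7.00). Of the 17 oxidation genes 3 were higher and 1 lower in COLO668, where 12.3% and 8.81% of all genes were, and 0 were called in NCI-H146 and NCI-H446. The changes of SCD5, NPC2, MBTPS1, ABCA1, VLDLR, LRP8, ACSL1, CPT1A and PPARGC1A named here for SHP-77, COLO668 and NCI-H446 kept their direction and their call without the 6 arrays.

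Members were also higher at day 7 than at day 2 without 552A, in 2 of the 6 time course lines. Day and batch cannot be told apart from the labels. In the DMSO arrays day 7 minus day 2 was called for 17 of 162 member tests, all higher, 10.5%, against 2.44% of all genes in either direction. SHP-77 had 10 members higher and 0 lower, with 3.28% of all genes higher and 4.96% lower. COLO668 had 7 higher and 0 lower, with 3.24% and 2.04%. The other 4 lines had 0 in either direction, and few genes of any kind were called there. Of all genes 0.0261% were higher and 0% lower in NCI-H526, 0.208% and 0.345% in NCI-H510, 0.0847% and 0.0456% in NCI-H146, and 0.319% and 0.0782% in NCI-H446. The same DMSO arrays are the controls of the response, so the day 7 values of both comparisons share them. The day 7 DMSO arrays of these 2 lines had mean ACTB 3' minus 5' signals of 1.00 and 0.70, against -0.09 to 0.03 in the other 4 lines. With this signal as a covariate 5 members were higher and 0 lower in SHP-77, with 0.684% of all genes higher, and 11 were higher and 1 lower in COLO668, with 5.08% and 3.63%. The 5 members of SHP-77 were INSIG1 at 1.41 (adjusted p 0.000198), SREBF1 at 0.85 (0.00121), SCD at 0.84 (0.00913), STARD4 at 0.69 (0.00913) and TM7SF2 at 0.58 (0.00228).

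In COLO668 DMSO the control genes SREBF2 and SCAP took different courses. SREBF2 read 10.85 and 11.05 on day 2, 11.16 and 11.18 on day 4 and 11.48 and 11.41 on day 7, above both earlier days. SCAP read 9.90 and 9.91, 9.85 and 9.87, and 9.85 and 9.48, a difference of -0.24 that did not pass the test. Without the 6 arrays that stood apart, which leaves 1 DMSO array at day 7, SCAP was at -0.43. In SHP-77 SREBF1 had DMSO arrays at 8.83 and 9.07 on day 2, 8.95 and 9.10 on day 4 and 10.44 and 9.84 on day 7, and rose by 1.19 ± 0.16 (SE, adjusted p 2.23e-06). INSIG1 had 9.79 and 10.30, 10.28 and 10.70, and 10.69 and 11.39, and rose by 1.00 ± 0.23 (adjusted p 0.00462). SCD had 11.44 and 11.79, 11.29 and 11.69, and 12.59 and 12.56, and rose by 0.97 ± 0.16 (adjusted p 0.000136). In all 3 genes the day 7 arrays were above both day 2 arrays. The other SREBF1 probe set read 0.33, with an adjusted p of 0.213 in limma over probe sets. A second SCD probe set was higher at 0.53 (0.015), while the remaining ones read -0.03 and -0.13. All INSIG1 probe sets were higher. STARD4, FADS2, MSMO1, DHCR7, TM7SF2, HSD17B7 and SREBF2 rose by 0.71, 0.64, 0.62, 0.49, 0.45, 0.34 and 0.34. By role these were 3 of 4 control genes, 4 of 9 squalene to cholesterol genes, 2 of 6 fatty acid genes, STARD4 and 0 of 7 mevalonate genes. The 0 holds for the probe sets used. HMGCS1 read -0.44 by the one used and 0.48 by the other, with adjusted p of 0.443 and 0.0465 in limma over probe sets. IDI1 read 0.09 by the dim one used, while 1 of those ending in _x_at was higher at 0.42 (0.0151). In COLO668 STARD4 rose by 0.69 ± 0.13, SCD by 0.68 ± 0.16, MSMO1 by 0.54 ± 0.14, SREBF1 by 0.53 ± 0.16, SREBF2 by 0.49 ± 0.11, FDPS, the farnesyl diphosphate synthase, by 0.44 ± 0.11 and DHCR7 by 0.36 ± 0.11. MSMO1, DHCR7, SREBF1, SREBF2, STARD4 and SCD were called in both lines. The unused HMGCS1 probe set was higher in COLO668 at 0.63 (adjusted p 0.012 in limma over probe sets) and in NCI-H446 at 0.74 (0.0203). In COLO668 IDI1 was higher at 0.46 (0.0138) and 0.51 (0.00372) by probe sets ending in _x_at and read -0.34 by the dim one used. The other SREBF1 probe set read 0.25 in COLO668 (0.509).

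**Figure D5:**
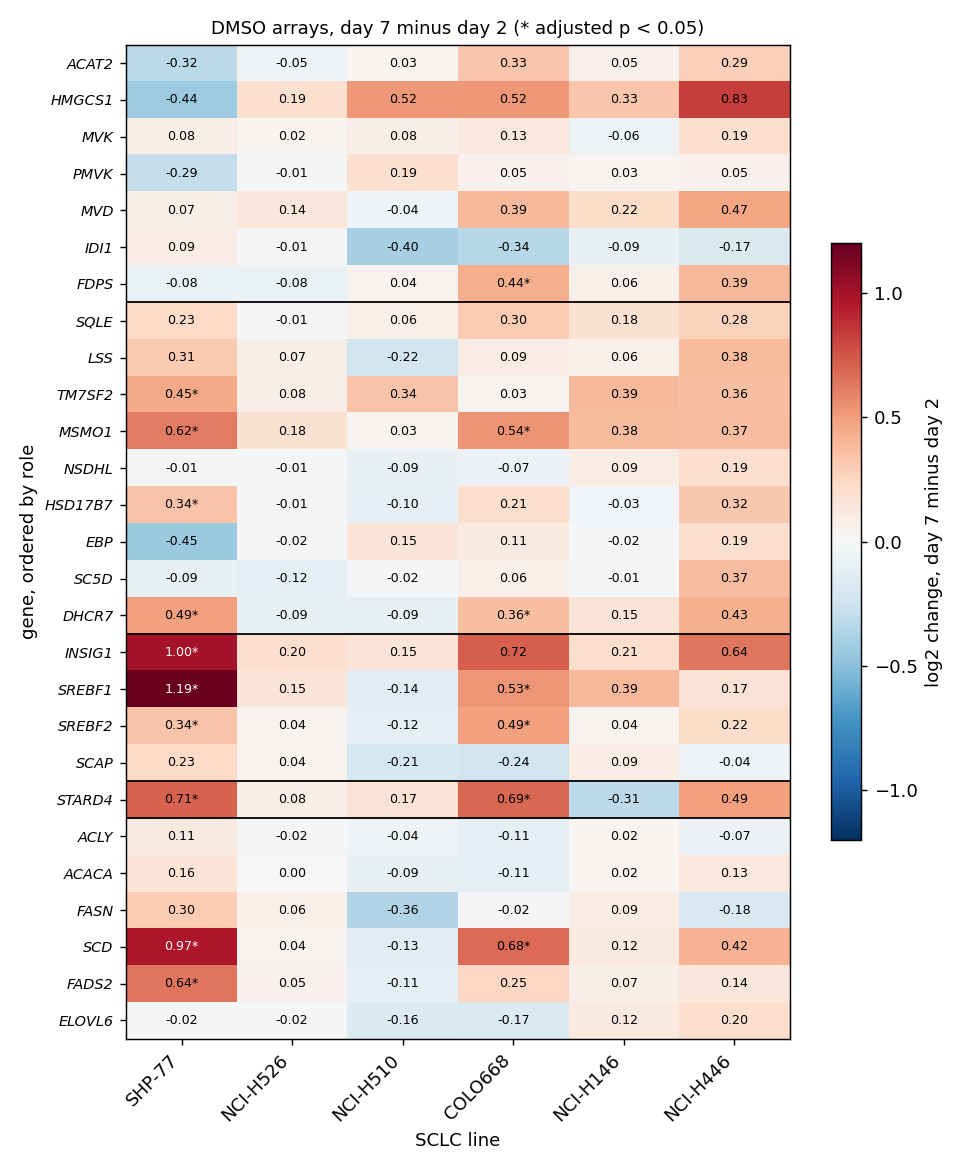
Change in the DMSO arrays from day 2 to day 7 (log2) of the 27 members in rows, ordered by role, and the 6 time course lines in columns, with the value in each cell and a star where the adjusted p was below 0.05. SHP-77 has 10 stars and COLO668 7, all positive, and NCI-H446 has 23 of 27 positive values without a star.

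Leaving out the 6 arrays that stood apart gave 7 higher members in SHP-77, with 1.76% of all genes higher, and 12 higher and 3 lower in COLO668, with 14.3% higher. In SHP-77 SREBF1 was then at 0.89 (adjusted p 0.00157), INSIG1 at 1.34 (0.000772) and SCD at 0.95 (0.00384). In COLO668 STARD4 was at 0.97 (3.89e-07), INSIG1 at 1.16 (0.000666) and SCD at 0.69 (0.0107), while SREBF1 at 0.37 (0.133) no longer passed. The 3 lower members of COLO668 were SCAP at -0.43, FASN at -0.38 and ACLY at -0.17. All were higher under 552A over days in this line, a comparison that uses the same DMSO arrays. Each group of 2 is then reduced to 1 array, whose spread is assumed to be that of the other groups. Leaving out a single DMSO array of day 2 or 7 in place of these 6 also left 1 array in its group. Fewer members of SHP-77 were then called when replicate 1 of day 2 or replicate 1 of day 7 was dropped. In COLO668 fewer were called when replicate 2 of day 7 or either replicate of day 2 was. No share of all genes is given for these fits, so a general loss of calls cannot be told apart. In NCI-H446, whose median over the members was 0.28 against 0.01 for all genes, 0 members had an adjusted p below 0.05 in limma. Without the 6 arrays 7 were called there, among them STARD4 at 0.49 (adjusted p 0.00736) and DHCR7 at 0.43 (0.026), with 1.39% of all genes higher. With the line as the replicate 0 of 27 members passed over the 6 lines, where 0.00651% of all genes were higher and 0% lower. INSIG1 at 0.49 ± 0.11 (adjusted p 0.307), MSMO1 at 0.35 ± 0.07 (0.304) and TM7SF2 at 0.28 ± 0.06 (0.319) were higher at day 7 in 6 of 6 lines.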

How the data were processed

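Per the labels, total RNA of DMSO or 552A cultures was hybridised to Affymetrix HG-U133 Plus 2.0 arrays. The deposited values are log2 levels per probe set, made by the authors with a program, background correction and scaling not given in the sources used here. Of 54675 probe sets, 41091 had 1 gene symbol in the platform annotation, 1801 several and 11721 none, beside 62 controls. The values were used without rescaling. A probe set was kept if a group mean exceeded the median of all values, 7.41, and the brightest stood for its gene, with those ending in _x_at set aside where another existed, which left 15352 of 19775 genes. Tests used limma 3.58.1 (lmFit, eBayes, two-sided, Benjamini-Hochberg over all genes tested, called at an adjusted p below 0.05) in R 4.3.3 with version 1.17.8 of data.table. A mean was fitted for each of 42 groups, which left 46 residual degrees of freedom beside a prior worth 6.52, so all lines share 1 estimate of the spread. The shared response used 1 ratio per line. The code was tested on simulated data. Figures used matplotlib 3.10.9, numpy 2.4.6 and pandas 2.3.3 under Python 3.11.15. Precision is limited by the number of arrays, which have no read depth.

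The members, gene lists and tests were chosen with earlier results of these data known. The genes named are the members, with values by the size of their called changes, and genes of the other lists called in the most lines. The design text speaks of sensitive and resistant lines, but no label assigns them, and that comparison was not analysed here. Alternatives were quantile normalization, no filter, averaging a gene's probe sets, each array left out, 6 arrays left out, the replicate number as a block and a line's own arrays alone. The ACTB 3' minus 5' covariate and days 2 and 4 only were added after the data were seen.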

Additional observations from a re-analysis of the deposited data

Results flagged for a closer look

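At day 4 the 552A minus DMSO value of 1 line lay apart from those of the other 8 lines for 2 of the 27 members whose sets of 9 line ratios were tested. MVK was at -0.17 in NCI-H446 (others -0.04 to 0.03), a comparison that includes the array with the narrow interquartile range. EBP was at -0.31 in NCI-H526 (others -0.14 to -0.01). Chance flags about 1 set in 20, and the same check over the 27 SHP-77 552A day 7 groups of 4 arrays found 0.

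The response over days differed between the 6 time course lines (limma moderated F test) for 14 members, listed here by the range from the lowest to the highest line. Of the sterol genes, LSS spanned 0.48, ACAT2 0.44, MSMO1 0.41, TM7SF2 0.38, SQLE 0.36, DHCR7 0.33 and HSD17B7 0.31. Of the control and carrier genes, STARD4 spanned 0.64, SREBF1 0.57 and SCAP 0.30. Of the fatty acid genes, FADS2 spanned 0.46, SCD 0.43, FASN 0.42 and ACLY 0.23. In COLO668 the ACAT2 response at day 7 differed from that at day 2 by -0.62, and the call was lost in 6 of the 12 fits that left out 1 array of that line. The change was -0.80 without the 6 arrays that stood apart.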

How the results depend on the processing

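The counts of members called are given per line. A count without a share of all genes beside it shows a shift, not whether it exceeds the background. With quantile normalization the response count was 2 in NCI-H510 and the vehicle count (day 7 minus day 2) 1 there. With a gene's probe sets averaged the response count was 2 in SHP-77 and the vehicle count 4 in COLO668. Without the 6 arrays the response count was 2 in NCI-H146 and 2 in H1417, the vehicle count 1 in NCI-H510, 15 in COLO668, 1 in NCI-H146 and 7 in NCI-H446, the line and day count 38 and the day 7 minus day 2 response count 5. Some replicate numbers deviated together and others did not (median r between -0.14 and 0.19 by line), so they pair no arrays here. With the replicate number as a block the response count was 2 in NCI-H146, 2 in NCI-H446 and 3 in H1417 and the vehicle count 4 in NCI-H446. With the ACTB covariate, chosen after seeing the data, the response count was 1 in NCI-H146 and 2 in H1417 and the vehicle count 5 in SHP-77, 12 in COLO668 and 1 in NCI-H446. In the response 4.91% of all genes were higher and 2.48% lower in NCI-H146, and 6.31% and 4.38% in H1417. For the vehicle these shares were 0.684% and 0.163% in SHP-77, 5.08% and 3.63% in COLO668 and 0.384% and 0.117% in NCI-H446. On days 2 and 4 only, also added afterwards, the response count was 0 in SHP-77, 2 in NCI-H526, 1 in NCI-H510, 2 in COLO668 and 1 in NCI-H446. The members were lower in NCI-H526, NCI-H510 and NCI-H446, where 4.85%, 3.66% and 2.03% of all genes were. They were higher in COLO668, where 4.55% of all genes were. SHP-77 had 0.918% of all genes higher and 0.749% lower. From a line's own arrays alone the response count was 7 in NCI-H510, 2 in COLO668, 3 in NCI-H146 and 0 in H69 and H1417. Those of NCI-H510 were lower, with 11.4% of all genes, and those of COLO668 higher, with 9.22%. In NCI-H146 1 was higher and 2 lower, with 5.61% and 2.94% of all genes. H69 had 2.93% of all genes higher and 2.37% lower, and H1417 2.41% and 1.35%. Leaving out 1 array gave response counts of 1 to 6 in SHP-77, 2 to 8 in NCI-H526, 2 to 3 in NCI-H510, 3 to 8 in COLO668, 0 to 1 in NCI-H146, NCI-H446 and H1417 and 0 in H69 and H2171. It gave vehicle counts of 4 to 14 in SHP-77, 1 to 9 in COLO668 and 0 to 2 in NCI-H446, 16 to 36 line and day calls, 0 to 4 calls of day 7 minus day 2 and 11 to 16 members that differ between lines. The cause of these shifts was not tested. Of 72 results of single members, 21 responses, 17 vehicle changes and 1 change of the response between days 2 and 7 were called. The rest were uncalled responses of SREBF1, INSIG1, SREBF2 and SCAP, which could not count as reversed or lost. Among the called results 0 reversed under any of the 8 alternatives. The calls lost were 9, 7 and 10 with quantile normalization, no filter and the mean of probe sets. They were 5, 1 and 8 without the 6 arrays, with the block and with the ACTB covariate. For days 2 and 4 only, the called responses of the time course lines were 1 in SHP-77, 8 in NCI-H526, 4 in NCI-H510 and 6 in COLO668. Of these calls 14 were lost. From a line's own arrays alone 7 of the 21 called responses were lost.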

Other observations

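In the DMSO arrays of SHP-77, 5 of 17 fatty acid oxidation genes fell from day 2 to day 7 and 0 rose, with 4.96% of all genes lower. HADHA, a subunit of the mitochondrial trifunctional protein, fell by 0.77 ± 0.20 (SE, limma adjusted p 0.0114) and ACAA2, a thiolase, by 0.63 ± 0.16 (0.00884). ETFA, which passes electrons from oxidation to the respiratory chain, fell by 0.56 ± 0.17 (0.0253), CPT2 by 0.55 ± 0.16 (0.0251) and the carnitine carrier SLC25A20 by 0.54 ± 0.15 (0.0163). The DMSO day 7 arrays of this line include 1 with an ACTB 3' minus 5' signal of 1.67. When the 6 arrays that stood apart were left out, 1 of the 17 was lower, ACAA2 at -0.26 (adjusted p 0.0367), with 2.16% of all genes, and HADHA was at -0.12 (0.492), ETFA at -0.10 (0.553), CPT2 at -0.11 (0.629) and SLC25A20 at -0.22 (0.263).

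In the same line the uptake receptor VLDLR rose by 0.59 ± 0.15 (limma adjusted p 0.0086) and the sterol exporter ABCG1 by 0.56 ± 0.16 (0.0207), and without the 6 arrays they were at 0.56 (0.0406) and 0.73 (0.0242). Acetyl-CoA synthetase ACSS2 rose by 0.36 ± 0.11 (0.0268) but was at 0.30 (0.12) without them. In COLO668 INSIG2, a relative of INSIG1, rose by 0.59 ± 0.13 (0.00367), SCD5 by 0.88 ± 0.19 (0.00271) and PPARGC1A by 0.61 ± 0.17 (0.0238), while ME1, the malic enzyme that supplies NADPH, fell by 1.11 ± 0.12 (1.61e-09). All 4 kept their call without the 6 arrays, at 0.86 (3.28e-07), 1.08 (0.000623), 0.76 (0.00766) and -1.02 (4.48e-08). Of the oxidation genes of COLO668 1 was called with all arrays and 4 higher and 3 lower without these 6, with 14.3% of all genes higher and 9.60% lower.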
